A study of Mus musculus with 4 samples.

Results

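The gastrokine genes Gkn1, Gkn2 and Gkn3 and the trefoil factor genes Tff1, Tff2 and Tff3 were taken by symbol from a table of 55335 gene rows measured in mouse stomach epithelium. All 6 were present, and all 6 passed the filter that left 13019 genes to be tested, a mean of at least 1 CPM over the libraries. CPM give the reads of a gene per 1000000 reads assigned to genes in that library. RNA was measured by SMART-Seq2, which copies full-length transcripts from little RNA by PCR. The cells came from the corpus, the main body of the stomach, of C57BL/6 mice aged 6 to 8 weeks. Every mouse carried the Iqgap3-2A-tdTomato allele, so that the red protein tdTomato was made wherever the Iqgap3 gene was on. Iqgap3 encodes a scaffold protein of the IQGAP family that is found in dividing cells, and the series concerns its part in stem cell proliferation. Live cells bearing the epithelial surface protein EpCAM were sorted into a fraction high for the reporter (IQ3pos) and one low or negative for it (IQ3neg). IQ3pos_1909A and IQ3neg_1909B were pools of 3 mice, and IQ3pos_1910A and IQ3neg_1910B were pools of 4. The labels do not say whether libraries of the same number shared their mice, and there was no group without the allele or from unsorted tissue. With 2 libraries per fraction, p-values measure the spread between these pools, part of which may be technical. In bulk RNA of this kind, fewer cells of a type and less RNA per cell cannot be told apart.

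Depth ran from 90714929 to 418401262 reads per library, so that 1 read was worth 0.0110 CPM or less. The 20 most abundant genes outside the 6 took 25.3% and 18.5% of the IQ3pos reads and 63.4% and 57.9% of the IQ3neg reads. Genes with any read numbered 29724 and 30017 in the IQ3pos libraries and 21757 and 21823 in the IQ3neg libraries. CPM are shares of a library, and the median tested gene stood 0.68 higher in IQ3pos on the log2 scale, a 1.60-fold difference. Under TMM, a scaling that takes most genes as equal between libraries and so sets their median near 0, it was 0.04. With the 20 most abundant genes left out it was −0.26. The cause of the shift was not tested. Iqgap3 RNA itself came to 0.220 CPM in IQ3pos_1909A, 9.32 in IQ3pos_1910A, 0.0435 in IQ3neg_1909B and 0.452 in IQ3neg_1910B. It was thus higher in IQ3pos at either pool size, but IQ3pos_1909A, with 20 reads of it, lay below IQ3neg_1910B. All 5 genes of a list for dividing cells stood higher in IQ3pos without overlap, with CPM (40.9% of all tested genes) as with TMM-scaled CPM (24.7%). They summed to 989 and 2366 CPM in IQ3pos against 85.9 and 177 in IQ3neg. Epcam, the sort marker, was present in all 4 libraries, at 205 to 517 CPM. A list for squamous forestomach summed to at most 1.20 CPM. Immune genes, chiefly Cd74 and Lyz2, summed to 1130 and 1697 CPM in the IQ3pos and IQ3neg pools of 3 mice and to 237 and 316 CPM in those of 4 mice.

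Gastrokines are small secreted proteins of the gastric mucosa that carry a BRICHOS domain, a fold that acts as a chaperone within precursor proteins. Gkn1 and Gkn2 are made by the surface and pit cells that line the stomach, and Gkn3 by mucous neck cells of the corpus and by deep mucous cells of the antral glands. Trefoil factors are short secreted proteins held together by cysteine bridges, and they stabilise mucus and help epithelium to close over wounds. Tff1 is a pit cell product that travels with the mucin Muc5ac and can be joined to Gkn2 by a disulphide bond. Tff2 is a product of mucous neck and antral gland cells and binds the mucin Muc6, while Tff3 is best known from the goblet cells of the intestine. For the comparisons that follow, Gkn1, Gkn2 and Tff1 are therefore called the pit genes and Gkn3 and Tff2 the neck genes, both of which are also antral gland products.

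The 6 genes form 1 cluster per family in the GRCm38 build. The gastrokine cluster covers 43.3 kb of chromosome 6: Gkn1 lies on the minus strand at 87345650 to 87350942, Gkn2 on the plus strand at 87373357 to 87379497 and Gkn3 on the minus strand at 87383256 to 87388935. Gkn2 and Gkn3 are 3.76 kb apart, and each gastrokine gene has 6 exons. The trefoil cluster covers 40.0 kb of chromosome 17, with all genes on the minus strand. Tff3 lies at 31125306 to 31129646 (3 exons), Tff2 at 31141049 to 31144282 (4 exons) and Tff1 at 31161395 to 31165277 (3 exons). The 250 bases before the RefSeq transcription start were at hand for 3 of the 6 genes, the gastrokines (GRCm38.p6). The RefSeq starts of Gkn1 and Gkn2 lie inside the spans given above, which are those of GENCODE. These bases are shown because Gkn1 and Gkn2 stood higher in both IQ3pos libraries while the fractions overlapped for their neighbour Gkn3. Each is written 5′ to 3′ along its gene's strand, with matches to the motifs named below in capitals.
Gkn1, chr6:87350916-87351165, minus strand: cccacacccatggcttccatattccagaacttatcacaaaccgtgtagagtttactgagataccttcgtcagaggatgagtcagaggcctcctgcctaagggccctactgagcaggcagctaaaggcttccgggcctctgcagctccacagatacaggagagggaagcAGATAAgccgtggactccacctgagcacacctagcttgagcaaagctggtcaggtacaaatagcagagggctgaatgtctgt
Gkn2, chr6:87373115-87373364, plus strand: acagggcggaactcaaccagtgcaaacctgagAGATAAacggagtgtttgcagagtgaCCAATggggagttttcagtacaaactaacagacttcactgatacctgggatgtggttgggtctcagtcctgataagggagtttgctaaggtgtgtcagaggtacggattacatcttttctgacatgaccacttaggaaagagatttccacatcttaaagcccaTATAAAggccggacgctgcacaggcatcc
Gkn3, chr6:87388936-87389185, minus strand: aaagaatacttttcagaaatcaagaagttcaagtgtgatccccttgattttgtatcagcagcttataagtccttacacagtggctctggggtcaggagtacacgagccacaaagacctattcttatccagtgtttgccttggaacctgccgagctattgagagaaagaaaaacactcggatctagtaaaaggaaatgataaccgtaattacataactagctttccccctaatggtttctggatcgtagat

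The TATA box motif TATAAA was searched on the strand of the gene. The GATA factor motif AGATAA, the CCAAT box and the forkhead motif, whose letters are TGTTTAC, were searched on both strands. Gkn1 holds AGATAA, 82 bases before its RefSeq start. Gkn2 holds TATAAA 29 bases, AGATAA 218 bases and CCAAT 192 bases before its RefSeq start. The Gkn3 window holds none of these letters, and no matches overlapped. Of 32851 mouse promoters of the same length, 7.59% held TATAAA, 9.99% AGATAA, 33.8% CCAAT and 3.17% TGTTTAC. The GC content was 53.2% for Gkn1, 47.2% for Gkn2 and 40.8% for Gkn3, against a median of 52.4% over those promoters.

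The pit genes Gkn1, Gkn2 and Tff1 were among the abundant RNAs of the IQ3pos cells and stood 7 to 10 times higher there than in IQ3neg cells. Gkn1 was at 5343 CPM in IQ3pos_1909A and 4945 in IQ3pos_1910A, and at 599 in IQ3neg_1909B and 697 in IQ3neg_1910B. It ranked 15 among all genes in both IQ3pos libraries and 74 and 66 in the IQ3neg libraries. Gkn2 was at 3201 and 3561 CPM in IQ3pos and at 320 and 496 CPM in IQ3neg, the pool of 3 mice first in each pair, as in all pairs below. Tff1, the partner of Gkn2, was at 530 and 563 CPM in IQ3pos and 56.2 and 68.5 CPM in IQ3neg. None of the 3 overlapped between fractions, which held for 40.9% of all tested genes in this direction and 14.2% in the other (24.7% and 23.0% with TMM-scaled CPM). The IQ3pos libraries differed from each other by only 1.06 to 1.11-fold in each gene. Between the pools of 3 mice the fold was 8.92 for Gkn1, 9.999 for Gkn2 and 9.43 for Tff1, and between the pools of 4 mice it was 7.10, 7.17 and 8.21. Summed, the 3 genes made up 0.907% of reads in each IQ3pos library and 0.0976% and 0.126% in the IQ3neg libraries.

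**Figure D1:**
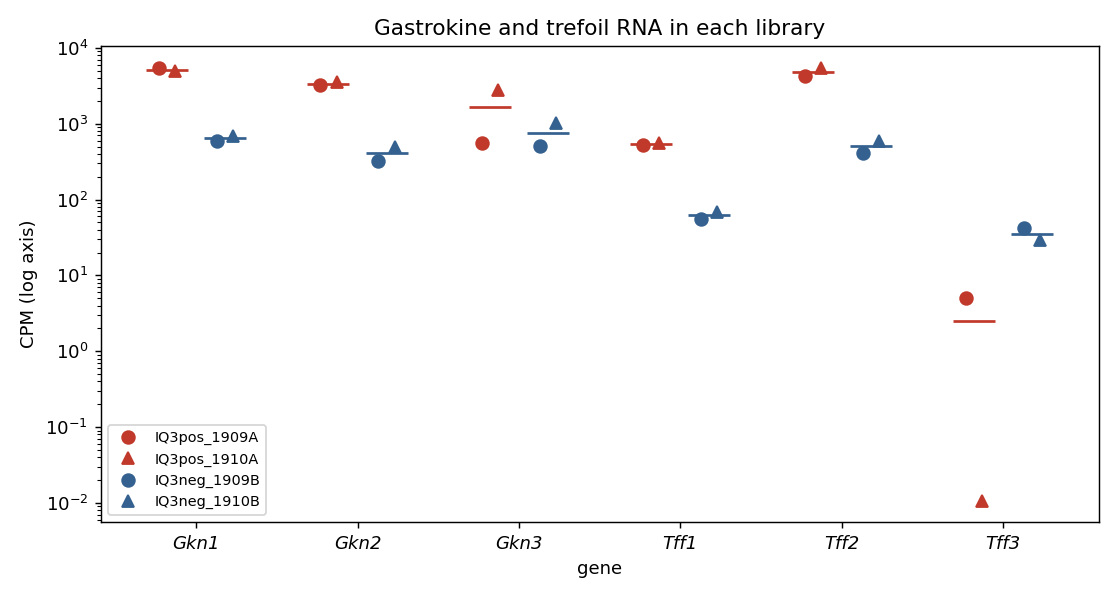
CPM of the 6 genes in each library on a log axis, with circles for the pools of 3 mice and triangles for the pools of 4 mice and a bar at each fraction's mean (n = 2). Gkn1, Gkn2, Tff1 and Tff2 lie higher in both IQ3pos libraries, Gkn3 overlaps, and Tff3 lies lower in both IQ3pos libraries, at 5.04 and 0.0107 CPM.

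In limma's test on log2(CPM + 1), two-sided and adjusted by Benjamini-Hochberg over all 13019 genes, these differences came close to the threshold of 0.05 without passing it. The log2 difference was 2.99 (SE 0.24, adjusted p = 0.0542) for Gkn1, 3.08 (SE 0.30, adjusted p = 0.0605) for Gkn2 and 3.12 (SE 0.29, adjusted p = 0.0584) for Tff1. The share of tested genes that limma called was 0% in each direction, while 18.2% stood higher and 4.98% lower in IQ3pos at an unadjusted p under 0.05. With TMM-scaled CPM the differences were smaller, but all 3 passed in limma: 2.22 for Gkn1 (adjusted p = 0.0352), 2.31 for Gkn2 (adjusted p = 0.0380) and 2.36 for Tff1 (adjusted p = 0.0477). Only 0.0461% of the tested genes, 6 in all, rose under that setting, and 0.184% fell. edgeR's quasi-likelihood test on recovered reads (0.0654% higher, 0.226% lower) gave adjusted p-values of 0.00652, 0.0143 and 0.0495. DESeq2 (2.65% higher, 10.6% lower) gave 0.00672, 0.00641 and 0.00277. In no fit that left out 1 of the 4 libraries did any of the 6 genes pass, with adjusted p of at least 0.129. Of all tested genes, 293 had a larger log2 difference than Gkn1, 256 than Gkn2 and 243 than Tff1. An antisense model, Gm15318, shares 221 exon bases with Tff1 (31.4% of its length); its CPM came to between 0.0583% and 3.71% of that of Tff1, and whether reads were counted by strand is not given in the sources used here.

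The neck genes parted. Tff2 behaved in value like the pit genes, at 4236 and 5492 CPM in IQ3pos and 415 and 596 CPM in IQ3neg, and it ranked 19 and 11 among all genes in the IQ3pos libraries. Its fractions did not overlap, and the fold was 10.2 between the pools of 3 mice and 9.22 between those of 4. On the log2 scale Tff2 differed by 3.28 (SE 0.30), which missed limma's threshold (adjusted p = 0.0569), and by 2.51 with TMM-scaled CPM, which passed it (adjusted p = 0.0312). It was the largest difference among the 6 genes in IQ3pos's favour, and 186 tested genes exceeded it. edgeR gave an adjusted p of 0.00841 and DESeq2 of 0.00285.

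Gkn3 showed no such shift. It was higher in the pool of 4 mice than in the pool of 3 in either fraction. So were Gkn2, Tff1 and Tff2, by 1.06 to 1.30-fold in IQ3pos and 1.22 to 1.55-fold in IQ3neg. Gkn3 was at 558 CPM in IQ3pos_1909A and 2746 in IQ3pos_1910A, against 503 in IQ3neg_1909B and 1016 in IQ3neg_1910B. The IQ3pos libraries differed 4.92-fold from each other and the IQ3neg libraries 2.02-fold, and the fractions overlapped. The means were 1652 ± 1547 and 760 ± 363 CPM (SD, n = 2), and differed by 0.79 on the log2 scale (SE 0.78; adjusted p = 0.561 in limma), close to the median of all genes. Between the pools of 3 mice IQ3pos stood 1.11-fold above IQ3neg and between those of 4 mice 2.703-fold. After TMM scaling these ratios were 0.605 and 1.71, so that the direction differed between pool sizes, and the fitted difference was 0.03 (adjusted p = 0.990). Without IQ3pos_1910A the difference turned to −0.36, and with TMM-scaled CPM to −1.07.

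Gkn3 is also an antral product, so the antral gland list was read beside it. Gast, the gastrin gene of antral endocrine cells, had no read in IQ3pos_1909A or IQ3neg_1909B, which allows up to 0.0331 and 0.0261 CPM (3 reads). It was at 19.6 CPM in IQ3pos_1910A and 487 CPM in IQ3neg_1910B. Pdx1, a transcription factor of antrum and duodenum, was at 0.0220 and 1.39 CPM in IQ3pos and at 0 and 0.217 CPM in IQ3neg. Both genes were thus higher in the pools of 4 mice, as Gkn3 was and, by smaller folds, Gkn2, Tff1 and Tff2. The same held for genes of other lists. Slc26a7, of the parietal list, was at 0.0331 and 7.91 CPM in IQ3pos and 0 and 5.36 CPM in IQ3neg. Capn9, of the pit list, was at 0.0441 and 7.54 CPM in IQ3pos and 1.21 and 5.70 CPM in IQ3neg. The parietal genes Atp4b and Kcne2 went the other way in each fraction. Aqp5, a water channel of antral and pyloric glands, was at 0.110 and 12.97 CPM in IQ3pos and at 0 and 0.0143 CPM in IQ3neg. Nkx6-3, a factor of antral endocrine cells, was at 0.0331 and 7.82 CPM in IQ3pos and at 2.63 and 2.28 CPM in IQ3neg. Lgr5, a stem cell receptor, went another way, at 11.1 and 0.0215 CPM in IQ3pos and 0.0522 and 13.7 CPM in IQ3neg. The 5 antral genes summed to 11.3 and 41.8 CPM in IQ3pos and 2.68 and 503 CPM in IQ3neg, although the tissue is labelled corpus. The part of antral cells in the Gkn3 level was not tested.

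**Figure D2:**
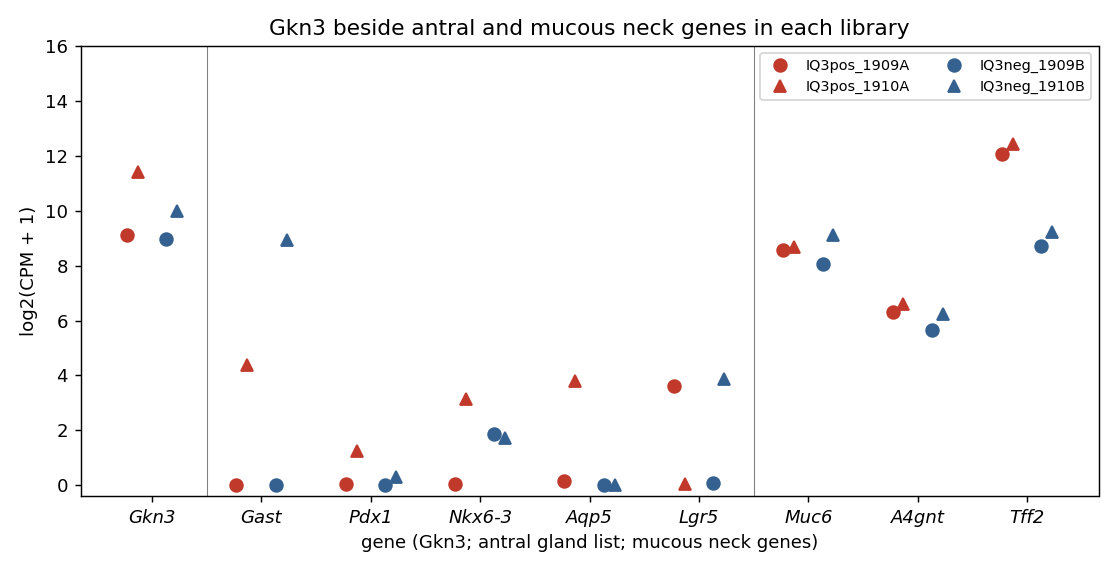
Gkn3, the 5 genes of the antral gland list and 3 mucous neck genes in each library, as log2(CPM + 1). Gkn3, Gast and Pdx1 are higher in the pool of 4 mice (triangles) of each fraction, and so are Muc6, A4gnt and Tff2. Aqp5 is higher in that pool in IQ3pos, while in IQ3neg, at 0.0143 CPM or less, it is too scarce to rank the pools. Lgr5 is lower in that pool in IQ3pos, and Nkx6-3 is lower in it in IQ3neg. Tff2 is high in both IQ3pos libraries.

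Tff3 was the single gene of the 6 with higher levels in IQ3neg. It was at 5.04 CPM in IQ3pos_1909A (457 reads) and 0.0107 CPM in IQ3pos_1910A (3 reads), and at 41.8 and 29.5 CPM in IQ3neg_1909B and IQ3neg_1910B (4802 and 12356 reads). The 3 reads carry an exact 95% Poisson interval of 0.00222 to 0.0314 CPM, which covers counting error only, since PCR copies of 1 molecule cannot be told from each other. IQ3neg stood 8.29-fold above IQ3pos between the pools of 3 mice (95% interval 7.53 to 9.14) and 2748-fold between those of 4 mice (940 to 13325). The fractions did not overlap, but the IQ3pos libraries differed 469-fold from each other. The log2 difference was −3.87 (SE 1.10, limma adjusted p = 0.126), and −4.38 with TMM-scaled CPM (adjusted p = 0.176), neither of which passed. Its size moved with the pseudocount, to −5.54 at 0.1 and −2.50 at 5. edgeR gave −5.22 and DESeq2 −4.64, with adjusted p-values of 0.217 and 0.210. There were 132 tested genes with a smaller log2 difference. In all, 4 of the 6 genes stood above and 1 below in IQ3pos without overlap, with CPM (40.9% and 14.2% of all tested genes) as with TMM-scaled CPM (24.7% and 23.0%).

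Goblet cell markers were mostly scarce, and only 2 of the 7 listed genes, Spink4 and Spdef, were tested. Spink4, a secreted inhibitor found in goblet cells, stood at 174 and 156 CPM in IQ3pos and 4.56 and 17.9 CPM in IQ3neg, the opposite direction to Tff3. Spdef, a factor of goblet cell maturation, was at 7.39 and 5.86 CPM in IQ3pos and 2.61 and 3.64 CPM in IQ3neg. Muc2, the goblet mucin, was at 0.209 and 3.46 CPM in IQ3pos (19 and 965 reads) and had 3 reads in each IQ3neg library. Clca1, another goblet product, was at 1.43 and 0.00358 CPM in IQ3pos (130 reads and 1 read). It had no read in either IQ3neg library, which allows up to 0.0261 and 0.00717 CPM. Zg16, a goblet lectin, had no read in IQ3pos and was at 0.591 CPM in IQ3neg_1909B and 0 in IQ3neg_1910B. The whole goblet list summed to 184 and 165 CPM in IQ3pos and to 7.82 and 22.4 CPM in IQ3neg, nearly all of it Spink4 in IQ3pos. The direction of Tff3 was that of the chief cell list, which summed to 50954 and 19641 CPM in IQ3pos and 414634 and 403518 CPM in IQ3neg. Most of the IQ3neg sum was Clps, at 340995 and 277067 CPM. Of the 6 chief cell genes, 5 stood lower in IQ3pos without overlap, against 14.2% of all tested genes. Pga5 overlapped, with a log2 difference of 0.60. The enteroendocrine list had the direction of Tff3 too, at 360 and 175 CPM in IQ3pos and 16180 and 10180 CPM in IQ3neg. Medians under 0 were also found for the antral gland (−0.18), tuft cell (−1.11), immune (−0.48), stroma (−1.07) and red blood cell (−1.29) lists. The part of these cell types in the Tff3 level was not tested.

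Levels of different genes were compared per kilobase of exon. In IQ3pos, Tff2 led at 8328 ± 1521 CPM per kb (SD, n = 2), followed by Gkn2 at 4291 ± 323 and Gkn1 at 4115 ± 225, and the last 2 did not differ beyond their spread. Gkn3 at 1930 ± 1807 overlapped with the next gene, Tff1 at 777 ± 33.3, and Tff3 was last at 5.12 ± 7.21. In IQ3neg, Gkn3 and Tff2 stood first at 887 ± 424 and 865 ± 219 CPM per kb, with overlapping libraries. Gkn1 at 518 ± 55.2 and Gkn2 at 518 ± 158 came next and overlapped with each other, and both Gkn1 libraries lay below both Tff2 libraries. Tff1 at 88.7 ± 12.4 and Tff3 at 72.3 ± 17.5 CPM per kb were close in IQ3neg, with overlapping libraries.

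The make-up of each family was compared as shares within a library, which do not depend on how libraries are scaled. Gkn3 made up 7.26% and 27.5% of gastrokine RNA per kilobase in IQ3pos and 39.9% and 49.99% in IQ3neg, without overlap. Gkn1 held 47.5% and 33.9% in IQ3pos and 32.5% and 23.5% in IQ3neg, and Gkn2 held 45.2% and 38.7% against 27.6% and 26.5%. Among the trefoil factors Tff2 held most of the RNA in every library, at 90.5% and 92.2% in IQ3pos and 81.2% and 86.6% in IQ3neg. Tff1 held a like share throughout, from 7.85% to 9.40%. Tff3 held 0.127% and 0.000214% in IQ3pos and 9.68% and 5.09% in IQ3neg.

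**Figure D3:**
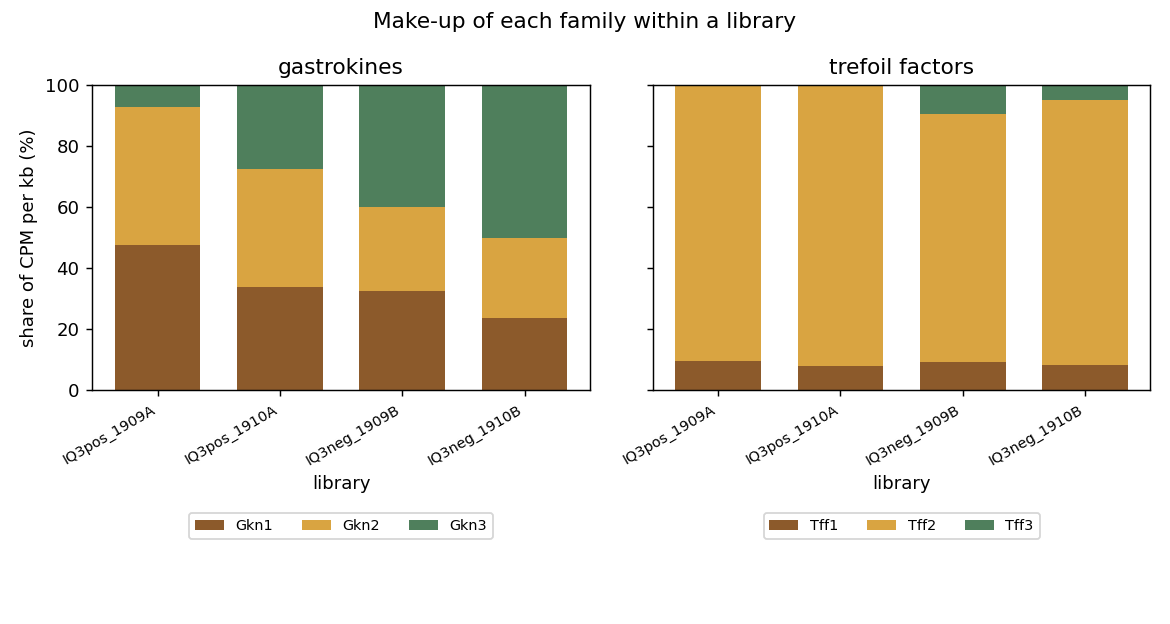
Share of each gene in the CPM per kilobase of its family, in percent, for the 4 libraries. The Gkn3 block is smallest in IQ3pos_1909A (7.26%) and largest in IQ3neg_1910B (49.99%), the Tff3 block is visible in the IQ3neg libraries, and the Tff1 block stays between 7.85% and 9.40%.

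Ratios between genes within a library were free of scaling too. Gkn2 over Tff1, whose proteins pair, was 6.04 and 6.33 in IQ3pos and 5.70 and 7.24 in IQ3neg, a log2 difference of −0.05. Gkn1 over Gkn2 was 1.67 and 1.39 in IQ3pos and 1.87 and 1.40 in IQ3neg, and Tff1 over Tff2 was 0.125 and 0.103 against 0.135 and 0.115. These ratios overlapped between fractions. Gkn1 over Tff1 did not, at 10.08 and 8.78 in IQ3pos and 10.66 and 10.17 in IQ3neg (log2 difference −0.15). Gkn2 over Tff2 did not either, at 0.756 and 0.648 in IQ3pos and 0.772 and 0.833 in IQ3neg (−0.20). Gkn3 over Tff2 set the neck genes apart from each other: it was 0.132 and 0.500 in IQ3pos and 1.21 and 1.71 in IQ3neg, a log2 difference of −2.49 with the same direction between the pools of 3 mice (−3.20) and of 4 mice (−1.77). Gkn1 over Gkn3 was 9.57 and 1.80 in IQ3pos and 1.19 and 0.686 in IQ3neg, a difference of 2.20. Tff2 over Tff3 was 841 and 510982 in IQ3pos, the latter on 3 reads of Tff3, and 9.94 and 20.2 in IQ3neg. Of the 15 pairs, 11 did not overlap between fractions, among them every pair with Gkn3 or Tff3. The pairs were drawn from the same 6 genes and are not independent, and the share over other gene pairs was not computed. With 2 libraries against 2, the exact two-sided permutation test cannot give a p below 0.333 (0.455 adjusted over the 15 pairs), so no ratio could pass.

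**Figure D4:**
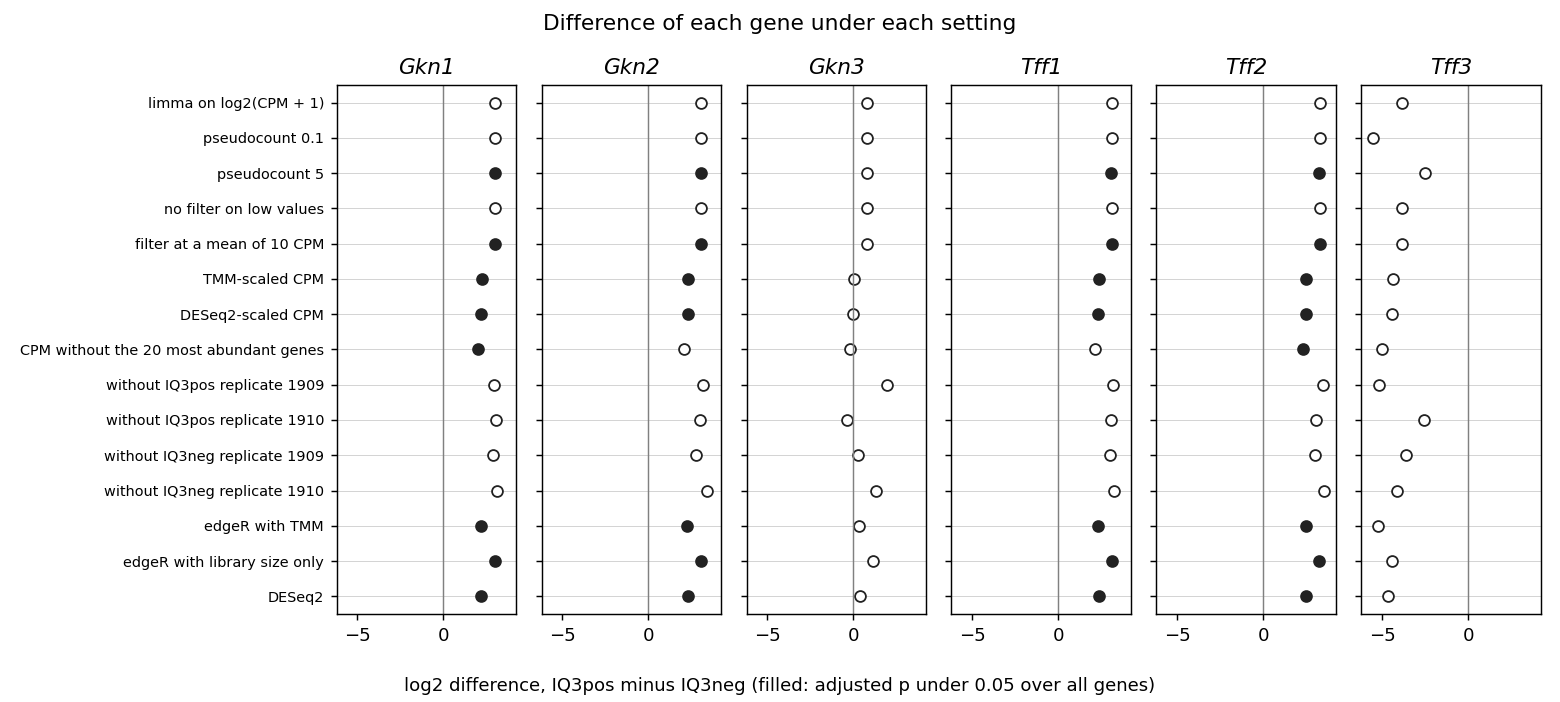
Log2 difference of each gene (IQ3pos minus IQ3neg) under the settings named on the axis, filled where the adjusted p over all genes was under 0.05. Gkn1, Gkn2, Tff1 and Tff2 lie right of 0 in every setting shown and pass in some, Gkn3 lies on either side of 0 and Tff3 left of 0, and neither passes in the settings shown.

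The mucins and mucus partners of the trefoil factors, 9 listed genes of which 7 were tested, had 4 genes higher in IQ3pos without overlap and none lower, not far from the 40.9% of all tested genes that stood higher. With TMM-scaled CPM 4 were higher and 1 lower, against 24.7% and 23.0%. Their median log2 difference was 2.01, against 0.68 over all tested genes, and none passed in limma. Muc5ac, the surface mucin that Tff1 accompanies, was at 464 and 685 CPM in IQ3pos and 39.0 and 102 CPM in IQ3neg (log2 difference 3.14, SE 0.52, adjusted p = 0.0659). Muc6, the gland mucin that Tff2 binds, was at 381 and 408 CPM in IQ3pos and 263 and 556 CPM in IQ3neg, and the fractions overlapped (0.04, SE 0.41, adjusted p = 0.957). After TMM scaling Muc6 was lower in both IQ3pos libraries, by −0.72 (adjusted p = 0.333). Tff2 therefore stood higher in IQ3pos beside a Muc6 level that showed no such difference. Agr2, a disulphide isomerase needed for mucin folding, was at 5382 and 6874 CPM in IQ3pos and 1133 and 2024 CPM in IQ3neg (2.01, adjusted p = 0.0659). Bpifb1, a secreted lipid-binding protein of mucus, was at 657 and 1280 CPM in IQ3pos and 205 and 1085 CPM in IQ3neg and overlapped. Dmbt1, a mucosal scavenger protein reported to bind trefoil factors, was at 38.3 and 200 CPM in IQ3pos and 5.82 and 10.7 CPM in IQ3neg. Fcgbp, a partner of Tff3 in intestinal mucus, was under 1 CPM in every library, at 0.0348 to 0.851 CPM.

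Pit cell markers outside the 6 genes stood higher in IQ3pos without overlap in 6 of 8 tested cases, with CPM (40.9% of all tested genes) as with TMM-scaled CPM (24.7%). Sult1c2, a sulphotransferase, was at 1902 and 1673 CPM in IQ3pos and 273 and 372 CPM in IQ3neg (log2 difference 2.48, adjusted p = 0.0605), and Mucl3, a mucin-like protein, differed by 3.07 (adjusted p = 0.0605). Psca, a surface protein on the same list, went the other way at 2479 and 2360 CPM in IQ3pos and 7108 and 8306 CPM in IQ3neg (−1.67, adjusted p = 0.0633), and with TMM-scaled CPM it fell (adjusted p = 0.0294). The list had a median of 2.29, or 1.61 above all genes. A list of parietal cell genes, which serve acid secretion, had a median of 2.63. Of its 6 genes, 5 stood higher in IQ3pos without overlap (4 with TMM-scaled CPM), against 40.9% and 24.7% of all tested genes. The list summed to 7607 and 7228 CPM in IQ3pos and 773 and 1371 CPM in IQ3neg. Car2 was its most abundant gene, at 3507 and 4186 CPM in IQ3pos and 324 and 841 CPM in IQ3neg. The mucous neck list without Tff2 and Gkn3 had a median of 0.64, 0.04 below that of all genes, over 4 tested genes. A4gnt, the enzyme that adds the terminal sugar of gland mucin, was at 78.6 and 95.9 CPM in IQ3pos and 48.9 and 75.1 CPM in IQ3neg (0.51, adjusted p = 0.485). Of those 4 genes, 3 stood higher in IQ3pos without overlap in CPM and 0 lower, against 40.9% and 14.2% of all tested genes. After TMM scaling 1, Aqp5, stood higher and 2 lower, against 24.7% and 23.0%. Aqp5, which is also on the antral list, differed by 1.97 (SE 1.36, limma adjusted p = 0.445) and had 0 and 6 reads in IQ3neg. Among markers of spasmolytic polypeptide-expressing metaplasia, a state named after the Tff2 protein, 4 of 5 stood higher in IQ3pos without overlap (3 higher and 1 lower with TMM-scaled CPM), with a median of 1.93, against the 40.9% and 24.7% of all tested genes. Clu, its most abundant gene, was at 2179 and 3222 CPM in IQ3pos and 1307 and 1923 CPM in IQ3neg (0.74, adjusted p = 0.245), and its fractions overlapped after TMM scaling. Gpx2 differed by 2.28 (adjusted p = 0.105), and Cd44 by −0.75 (adjusted p = 0.614).

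**Figure D5:**
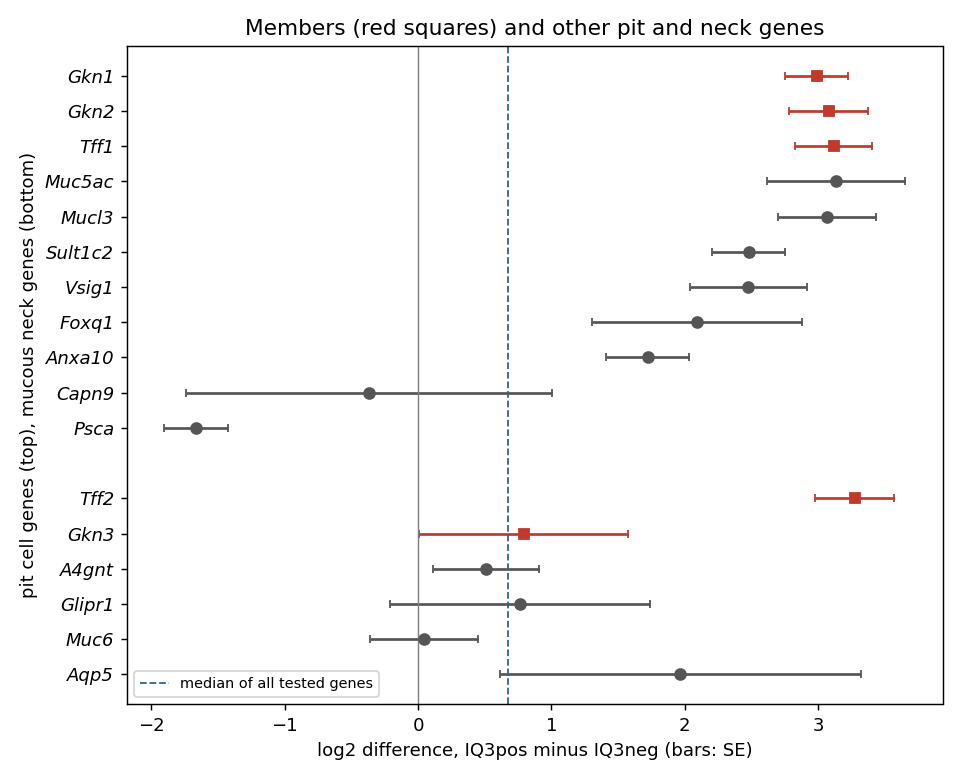
Log2 difference between fractions (points, with SE bars) for the pit genes and other pit markers (top) and for the neck genes and other neck markers (bottom); the dashed line is the median of all tested genes, 0.68. Tff2 at 3.28 lies with the pit genes. Muc6, A4gnt and Gkn3 lie near the dashed line or below it, and Aqp5 lies above it at 1.97 (SE 1.36).

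Of 7 other genes of BRICHOS proteins 3 were tested, with a median log2 difference of −1.65. Without overlap, 1 stood higher in IQ3pos and 1 lower, against 40.9% and 14.2% of all tested genes. With TMM-scaled CPM 0 stood higher and 2 lower, against 24.7% and 23.0%. Itm2b, a widely made membrane protein, was at 734 and 668 CPM in IQ3pos and 584 and 597 CPM in IQ3neg (log2 difference 0.24, adjusted p = 0.554), and after TMM scaling it was lower in both IQ3pos libraries. Itm2c, its relative in endocrine and neural cells, was at 11.8 and 12.3 CPM in IQ3pos and 65.1 and 89.5 CPM in IQ3neg (−2.57, adjusted p = 0.0669). Tnmd and Bricd5 had no read in any library. Of the other genes whose proteins carry a trefoil domain, Gaa, the lysosomal glucosidase, was at 0.165 and 0.0860 CPM in IQ3pos and 11.8 and 12.7 CPM in IQ3neg (−3.56, adjusted p = 0.110). Sis, the intestinal sucrase-isomaltase, was at 4.12 and 0.222 CPM in IQ3pos and at 0 and 0.361 CPM in IQ3neg. The median of the 3 tested genes of that list was 1.10.

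Receptors proposed for trefoil factors were scarce. Of 7 genes found, 2 were tested. F2rl1, a protease-activated receptor, was at 10.1 and 16.1 CPM in IQ3pos and at 0 and 3.89 CPM in IQ3neg (log2 difference 2.64, SE 1.15, adjusted p = 0.242). Egfr, the receptor of epidermal growth factor, was at 0.0882 and 0.136 CPM in IQ3pos and 2.50 and 2.38 CPM in IQ3neg (−1.63, adjusted p = 0.288). Cxcr4, a chemokine receptor put forward for Tff2, was at 0.400 CPM or less in all 4 libraries. Its relative Ackr3 was at 2.10 CPM in IQ3neg_1910B and at most 0.0441 CPM elsewhere.

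Transcription factors of foregut mucous cells stood higher in IQ3pos without overlap in 12 of 14 tested cases and lower in none, against 40.9% higher among all tested genes, with a median log2 difference of 1.31. After TMM scaling 8 of the 14 stood higher without overlap, against 24.7%. Klf5, an epithelial factor, was at 184 and 191 CPM in IQ3pos and 41.2 and 93.4 CPM in IQ3neg (1.58, adjusted p = 0.133). Klf4, a factor of mature surface epithelium, was at 118 and 93.6 CPM in IQ3pos and 23.3 and 17.0 CPM in IQ3neg (2.34, adjusted p = 0.0666). None of the 14 passed in limma. Cdx2, the intestinal master factor, had no read in any library, and Cdx1 had at most 2 reads.

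Genes next to the 2 clusters were mixed in direction. On chromosome 6, Gfpt1, an enzyme of hexosamine synthesis, was at 62.2 and 126 CPM in IQ3pos and 60.1 and 78.5 CPM in IQ3neg (log2 difference 0.36, adjusted p = 0.660). Arhgap25 was near 0 apart from 19.9 CPM in IQ3neg_1909B. The other 4 neighbours of the gastrokine cluster, D6Ertd527e, Antxr1, Bmp10 and Prokr1, did not pass the filter. On chromosome 17, Abcg1, a cholesterol transporter 7.32 kb from Tff3, was at 97.4 and 3.45 CPM in IQ3pos and 262 and 185 CPM in IQ3neg (−3.40, SE 1.39, adjusted p = 0.220). Like Tff3, it was lower in IQ3pos and lowest in IQ3pos_1910A. Glp1r, the receptor of the hormone GLP-1, was at 296 and 261 CPM in IQ3pos and 30.4 and 101 CPM in IQ3neg (2.30, adjusted p = 0.107). Rsph1, a ciliary protein, was under 0.05 CPM in IQ3pos and at 2.28 and 2.22 CPM in IQ3neg (−1.67, adjusted p = 0.269). Umodl1, Tmprss3 and Ubash3a did not pass the filter.

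Likeness of pattern was measured as the distance between log2(CPM + 1) profiles over the 4 libraries, each centred on its own mean, where 0 is the same profile. Among the 6 genes, Gkn1 and Tff1 were closest at 0.195, then Gkn2 and Tff1 at 0.254 and Gkn2 and Tff2 at 0.263. Tff2, a neck gene, lay 0.308 from Tff1 and 0.496 from Gkn1, against 0.359 between Gkn1 and Gkn2, the pit pair farthest apart. Gkn1 and Gkn3 were 2.84 apart, and Tff3 was 5.89 to 7.48 from the other 5. Among the 2294 other genes that averaged 50 CPM or more, Gkn1 was nearest to Galntl6, an enzyme of the family that starts O-linked glycans, at 0.0393, followed by Mtap and Fam136a. Galntl6 was at 465 and 414 CPM in IQ3pos and 50.1 and 58.7 CPM in IQ3neg. Gkn2 was nearest to Cxcl17, a mucosal chemokine (0.177), Mogat1 and Sptssb, and Tff1 to Gsr, glutathione reductase (0.160), Akr1c14 and Galntl6. Tff2 was nearest to Cdca3, a gene of the cell cycle (0.167), Tspan15 and Lgals2, a galectin. Near to Gkn3 were Psmd2, a proteasome subunit (0.153), and Jpt2. Psmd2 was at 72.2 and 335 CPM in IQ3pos and 69.4 and 140 CPM in IQ3neg. For Tff3 they were Clps, pancreatic colipase (0.584), Pla2g1b, a secreted phospholipase, and Nupr1, a stress-response gene. Clps was at 31717 and 7144 CPM in IQ3pos and 340995 and 277067 CPM in IQ3neg. With 4 libraries such profiles hold few independent values, and the distances carry no test.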

How the data were processed

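For the 4 SMART-Seq2 libraries the submitters' processing notes name STAR 2.7.1a, Subread 2.0.0 with featureCounts, edgeR and the GRCm38 (mm10) build, with no order of use. The sources used here give neither the annotation nor the strand setting. The authors deposited CPM. Each column sums to 1000000, and all values above 0 were within 0.05 of a whole read, so reads were recovered. The main test was limma 3.58.1 (R 4.3.3) on log2(CPM + 1), two-sided, over the 13019 genes that averaged 1 CPM or more, with Benjamini-Hochberg adjustment at 0.05, no block and 2 libraries against 2. edgeR 4.0.16 and DESeq2 1.42.0 were run on the recovered reads as alternatives, with other pseudocounts, filters and scalings and with each library left out. The steps were tested on simulated data. Exon lengths and positions came from GENCODE, whose symbols matched 53647 of 55335 rows (96.9%), and promoters from RefSeq. Intervals cover counting error only. The 6 genes and all lists were chosen with earlier results of these data known. From the lists described gene by gene, genes past the threshold in limma were named or, where none passed, those with the 2 highest mean CPM. Other cell type lists, such as those for dividing, parietal, chief and enteroendocrine cells, were given mainly by sums, counts or medians. Further list genes, such as Muc5ac, Muc6, Psca, Muc2, Clps, Pga5, Slc26a7, Capn9 and the antral genes, were named after their values were seen. Also named were the 3 nearest protein-coding genes on each side of each cluster and the 3 genes nearest in profile to each of the 6, of which 1 is not reported here.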

Additional observations from a re-analysis of the deposited data

How the results depend on the processing

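Limma's counts of genes higher and lower in IQ3pos were 0 and 0 with log2(CPM + 1), with a pseudocount of 0.1, with no filter and without any 1 library. They were 239 and 54 with a pseudocount of 5, 999 and 87 with a filter at 10 CPM, 6 and 24 with TMM-scaled CPM, 7 and 34 with DESeq2-scaled CPM, and 2 and 9 without the 20 most abundant genes. edgeR gave 11 and 38 with TMM and 82 and 31 with library size only, and DESeq2 gave 428 and 1707.

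Gkn1, Gkn2, Tff1 and Tff2 kept their direction under every alternative run. In that order, their log2 differences passed the threshold with a pseudocount of 5 (2.98, 3.07, 3.04, 3.26), a filter at 10 CPM (2.99, 3.08, 3.12, 3.28), TMM-scaled CPM (2.22, 2.31, 2.36, 2.51), DESeq2-scaled CPM (2.19, 2.28, 2.32, 2.47), edgeR with TMM (2.18, 2.25, 2.32, 2.46), edgeR with library size only (2.99, 3.05, 3.13, 3.27) and DESeq2 (2.20, 2.28, 2.34, 2.49). Without the 20 most abundant genes, Gkn1 (2.00) and Tff2 (2.29) passed, and Gkn2 (2.09) and Tff1 (2.14) did not. Leaving out 1 library gave 2.88 to 3.10 for Gkn1, 2.76 to 3.39 for Gkn2, 2.98 to 3.26 for Tff1, 3.02 to 3.54 for Tff2, −5.16 to −2.58 for Tff3 and −0.36 to 1.94 for Gkn3. With TMM-scaled CPM, leave-one-out fits chosen after seeing the data gave 2.12 to 2.33, 2.15 to 2.47, 2.34 to 2.37, 2.37 to 2.65, −5.54 to −3.23 and −1.07 to 1.12, and none passed. Each such fit leaves a fraction with 1 library, which is assumed to vary like the other fraction.

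Gkn3 turned to −0.010 with DESeq2-scaled CPM, to −0.20 without the 20 most abundant genes, to −0.36 without IQ3pos_1910A and, with TMM-scaled CPM, to −1.07 without IQ3pos_1910A and −0.32 without IQ3neg_1909B; the cause was not tested. The Gkn2 to Tff2 ratio differed by −0.20 on the log2 scale, by −0.030 with the pools of 3 mice alone and by −0.36 with those of 4 mice alone.

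The fractions share library numbers, but with 2 pairs and no statement of shared mice a pairing was not established; deviations of same-numbered libraries correlated at 0.148 across 13019 genes, which are not independent. With the replicate block limma gave 1216 and 125 calls and the 4 genes passed (2.99, 3.08, 3.12, 3.28). With the replicate block and TMM-scaled CPM it gave 246 and 157 calls, and the 4 genes (2.22, 2.31, 2.36, 2.51) and Tff3 (−4.38) passed. Depth limits only the lowest values, such as the 3 reads of Tff3 in IQ3pos_1910A.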
